A study of Mus musculus with 10 samples.

Results

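Mast cell genes were examined in the infrarenal aorta of mice with elastase-induced aneurysm. The set held 10 genes that mark the mast cell or its activation: the granule proteases Cpa3, Cma1, Mcpt4, Tpsb2 and Tpsab1, the receptors Kit, Ms4a2 and Fcer1a, the enzyme Hdc and the transcription factor Gata2. They were chosen by name, as every probe for genes (control spots aside) whose gene name equalled a listed member. All 10 were on the array, among 35527 gene names, and 8 of them were among the 22520 genes bright enough to be tested.

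Each array carried RNA from the infrarenal aorta of 1 male C57BL/6J mouse, 10 weeks old, labelled with the red dye Cy5 and hybridised with a universal mouse reference labelled with the green dye Cy3. In the 5 PPE mice the segment was infused for 5 min at 100 mmHg with saline holding porcine pancreatic elastase (PPE) at 1.5 U per mL, which injures the elastic wall and leads to an aneurysm. The 5 sham mice had the same operation and infusion with saline alone, and all aortas were taken at 7 days. No genotype beyond the strain is given and no arrays of unoperated mice are used here, so surgery, ligature and pressure were shared by the groups. Whole tissue was measured, so a lower ratio cannot tell fewer mast cells from less RNA per cell.

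Mast cells are tissue-resident cells of the blood lineage that sit around vessels, in the aorta mainly in the adventitia. Their growth and survival depend on the receptor Kit. Their granules hold proteases (carboxypeptidase A3, chymases and tryptases) and histamine, packed on the proteoglycan serglycin, and are released when antigen crosslinks IgE on its high-affinity receptor. The proteases are close to restricted to mast cells, whereas histidine decarboxylase is also made by neutrophils, macrophages and basophils, Gata2 also by endothelium and blood progenitors, and Kit also by interstitial cells of Cajal and melanocytes.

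The protease probes are shown first, since the reading of the family turned on them. The tryptases Tpsb2 and Tpsab1 are neighbouring genes with similar sequence, and the probes below are the stretches of each transcript that were measured, in mm9 coordinates as the scanner files give them. The Cma1 probe (chr14:56561491-56562550) is 60 bases long but spans 1060 bases of genome, so it crosses an intron. The Tpsb2 probe shown (chr17:25504493-25504552) is the second of a pair for that gene, and the Tpsab1 probe lies at chr17:25480640-25480699. The files give no exon or UTR for a probe, and each of these holds a reading frame with no stop.
Cma1 probe: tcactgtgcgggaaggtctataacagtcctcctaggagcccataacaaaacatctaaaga
Tpsb2 probe: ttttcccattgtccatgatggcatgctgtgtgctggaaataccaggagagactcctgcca
Tpsab1 probe: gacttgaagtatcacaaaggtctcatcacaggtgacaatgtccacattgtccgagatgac

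Promoters of 3 proteases and of Hdc are shown because Hdc was called higher in PPE aorta and the proteases were not called. They are the 250 bases before the RefSeq start in GRCm38.p6, in the direction of the gene, all from genes on the minus strand. Capitals mark GATAA, a form of the site that GATA factors such as Gata2 bind, or TTATC, the same letters on the other strand. Other forms of the site, such as GATAG, were not searched for and are not marked.
Cpa3, chr3:20242182-20242431: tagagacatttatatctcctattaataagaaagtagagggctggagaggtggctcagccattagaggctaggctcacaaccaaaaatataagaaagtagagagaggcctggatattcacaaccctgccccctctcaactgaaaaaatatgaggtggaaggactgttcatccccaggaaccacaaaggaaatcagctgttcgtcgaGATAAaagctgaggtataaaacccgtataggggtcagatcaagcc
Cma1, chr14:55944676-55944925: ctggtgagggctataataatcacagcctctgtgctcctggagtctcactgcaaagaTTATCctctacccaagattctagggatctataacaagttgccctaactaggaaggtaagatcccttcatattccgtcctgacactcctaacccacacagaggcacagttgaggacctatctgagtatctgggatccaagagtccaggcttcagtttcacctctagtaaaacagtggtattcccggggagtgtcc
Mcpt4, chr14:56062311-56062560: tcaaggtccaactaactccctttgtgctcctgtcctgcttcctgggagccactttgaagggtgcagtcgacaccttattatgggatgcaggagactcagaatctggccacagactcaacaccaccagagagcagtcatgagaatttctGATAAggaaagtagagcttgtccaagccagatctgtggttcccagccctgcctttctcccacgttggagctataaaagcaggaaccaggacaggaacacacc
Hdc, chr2:126618679-126618928: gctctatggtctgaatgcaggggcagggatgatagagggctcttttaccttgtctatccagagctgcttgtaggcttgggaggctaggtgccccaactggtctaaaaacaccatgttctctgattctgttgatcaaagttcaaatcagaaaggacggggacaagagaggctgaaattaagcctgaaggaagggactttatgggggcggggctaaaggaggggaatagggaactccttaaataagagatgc

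The match lay 45 bases before the start of Cpa3, 194 before that of Cma1 and 102 before that of Mcpt4, and the Hdc window held neither GATAA nor TTATC. The Hdc window does hold GATAG (in gggatgatagaggg), a form that was not searched for. The search therefore does not show that Hdc lacks a GATA site. In windows of 300 bases (250 before to 50 after the start), 8 of the 10 genes had an entry and 5 held GATAA on either strand, Ms4a2 and Fcer1a being the others. The windows of Kit, which like the proteases was not called, and of Gata2 held no match, as for Hdc. The same letters were in 25.4% of 32851 mouse windows of that length. Tpsb2 and Tpsab1 had no entry. The letters are a description of these windows and do not show that a factor was bound.

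Values are log2 ratios of aortic over reference RNA, loess-normalised within each array, so 1 unit is a 2-fold difference. A gene counts as called when limma's adjusted p (Benjamini-Hochberg over all 22520 genes, two-sided) was below 0.01. A probe counts as above background when the scanner software marked its red signal so. Between 37.6% (sham 5) and 65.8% (PPE 1) of spots were above background in red. The arrays lay on 5 slides: slide 1 with sham 1, PPE 1 and PPE 2, slide 2 with PPE 3, PPE 4, sham 2 and sham 3, and a slide each for the other arrays. Slide 1 was the only slide of its scan day, and where a slide held both groups the difference within it is given. Over all genes tested 13.8% were called higher and 9.96% lower in PPE aorta, the groups did not overlap for 25.5%, and the median difference was 0.02. With median centring 408 genes were called higher and 8 lower, against 3116 and 2243 after loess. Of the 8 tested mast cell genes, 1 was called higher (Hdc), 1 lower (Gata2) and 6 were not called, with a median difference of -0.12. The groups did not overlap for 2 of the 8. These shares are near the background.

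**Figure D1:**
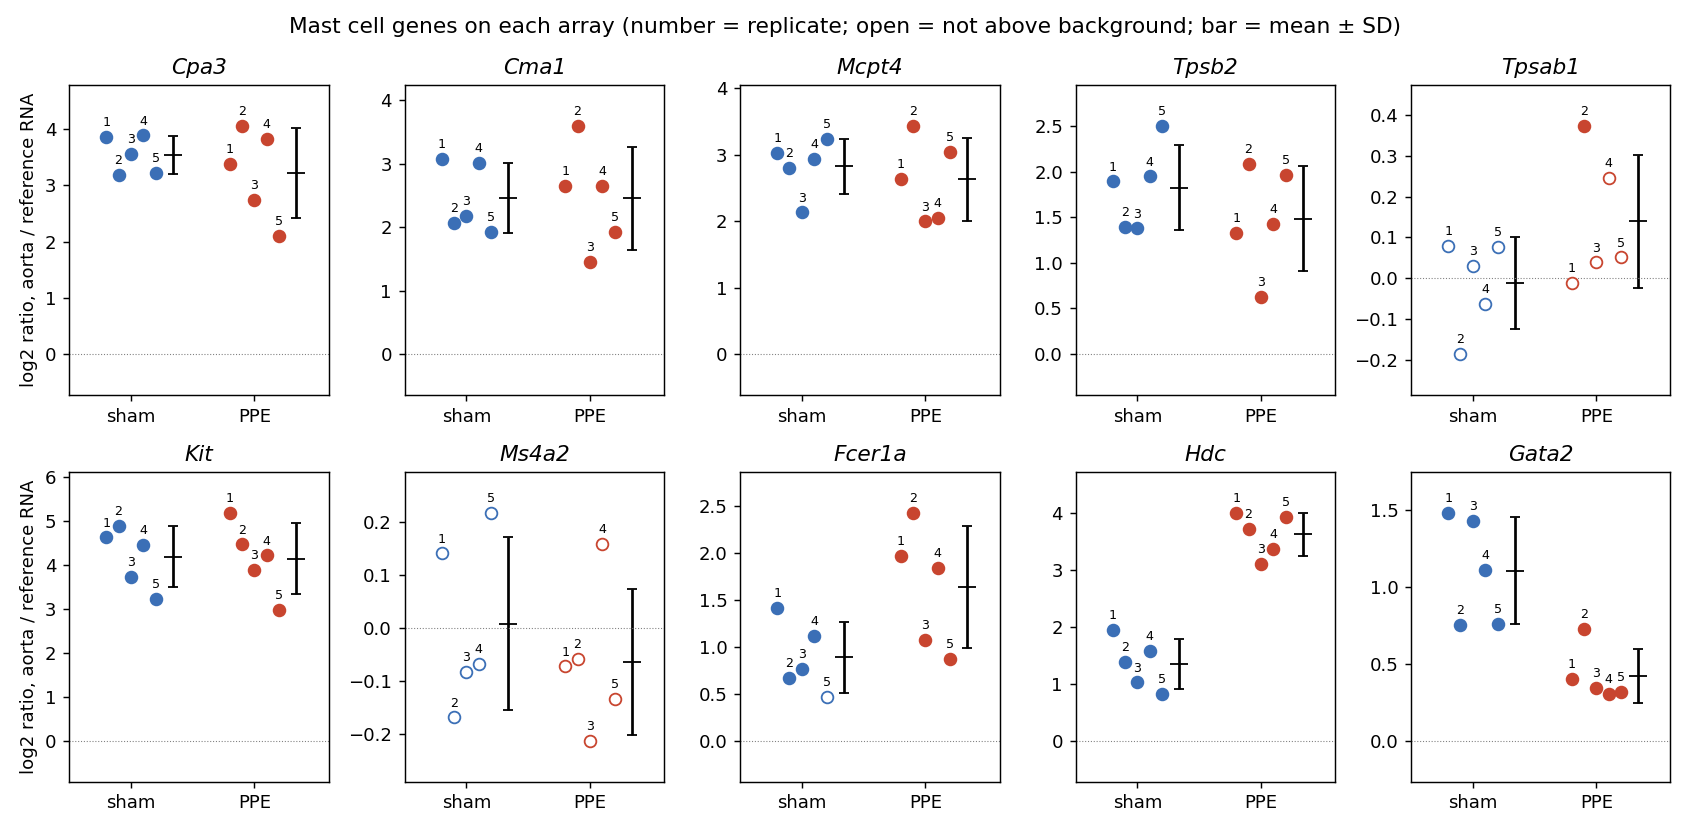
Log2 ratio of aortic over reference RNA (vertical axes, each gene on its own scale) for the 10 mast cell genes on the 5 sham and 5 PPE arrays, numbered by replicate, with mean ± SD beside them; open points were not above background. Hdc and Gata2 are the genes whose groups do not overlap, and PPE 2 is the highest PPE array for Cpa3, Cma1, Mcpt4 and Tpsb2.

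The granule proteases that the array could measure were present in every sham and PPE aorta, and none was called. Cpa3, Cma1, Mcpt4 and Tpsb2 were above background on 10 of 10 arrays. Their mean log2 differences ran from -0.34 to 0.0013, with intervals that reach both sides of 0. With each array centred on its median in place of loess, the median of all genes was 0.41, and relative to it Cpa3 was at -0.29, Tpsb2 at -0.25 and Mcpt4 at 0.12.

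Cpa3 encodes carboxypeptidase A3, the exopeptidase of mast cell granules. Its log2 ratio was 3.86, 3.18, 3.56, 3.89 and 3.22 on sham arrays 1 to 5 and 3.38, 4.06, 2.75, 3.83 and 2.10 on PPE arrays 1 to 5. The PPE values spread over a wider range than the sham values and enclosed them, with PPE 2 highest and PPE 5 lowest of all arrays. The sham mean was 3.54 ± 0.34 and the PPE mean 3.22 ± 0.80 (SD, n = 5 each), a difference of -0.32 (SE 0.34, 95% interval -1.06 to 0.42, limma adjusted p = 0.518, exact two-sided permutation p = 0.460). It was -0.14 within slide 1 and -0.08 within slide 2.

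Cma1 encodes a chymase that cleaves angiotensin I among other substrates. The log2 ratio was 3.08, 2.07, 2.18, 3.02 and 1.92 on sham arrays 1 to 5 and 2.65, 3.60, 1.46, 2.65 and 1.93 on PPE arrays 1 to 5. The highest and the lowest value were both PPE arrays, PPE 2 and PPE 3. The group means were nearly equal, 2.45 ± 0.55 and 2.46 ± 0.81 (SD, n = 5 each), and the difference was 0.0013 (SE 0.38, 95% interval -0.83 to 0.83, limma adjusted p = 0.999). The interval allows a change of up to 1.78-fold in either direction. The sign of so small a value turned under 12 of 28 alternative treatments of the data.

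Mcpt4 encodes the chymase of connective tissue mast cells that is regarded as the counterpart of human chymase in activity. On sham arrays 1 to 5 it was 3.03, 2.80, 2.13, 2.93 and 3.23, and 2.64, 3.43, 2.0, 2.04 and 3.04 on PPE arrays 1 to 5 (log2 ratio). PPE 2 was again the highest of all arrays and PPE 3 the lowest. The difference was -0.20 (SE 0.29, 95% interval -0.84 to 0.45, limma adjusted p = 0.660), from 2.83 ± 0.42 in sham to 2.63 ± 0.63 in PPE (SD, n = 5 each). It was 0.0053 within slide 1 and -0.45 within slide 2.

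Tpsb2 encodes the tryptase mMCP-6. The brighter of its 2 probes (chr17:25504819-25504878) gave 1.89, 1.39, 1.38, 1.95 and 2.50 on sham arrays 1 to 5 and 1.33, 2.08, 0.63, 1.42 and 1.96 on PPE arrays 1 to 5. PPE 3 and PPE 1 lay below every sham array and no PPE array lay above all of them. The difference was -0.34 (SE 0.29, 95% interval -0.97 to 0.30, limma adjusted p = 0.417). The probe printed above gave 2.49, 1.94, 1.82, 2.63 and 1.88 in sham and 2.10, 2.84, 1.37, 1.78 and 1.23 in PPE. Its difference of -0.29 (exact permutation p = 0.397) had the same sign, although the probes did not order the arrays alike, sham 5 being the highest array by the brighter probe and PPE 5 the lowest by the other.

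Tpsab1 encodes the tryptase mMCP-7, and C57BL/6 mice are known to carry a splice defect in this gene. Its probe was above background on 0 of 5 sham arrays and 1 of 5 PPE arrays, PPE 2, where its ratio was 0.37. All other arrays lay between -0.18 and 0.24, so the gene was not well above background and gives no fold change. The neighbouring Tpsb2 was above background on all 10 arrays by its brighter probe.

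**Figure D2:**
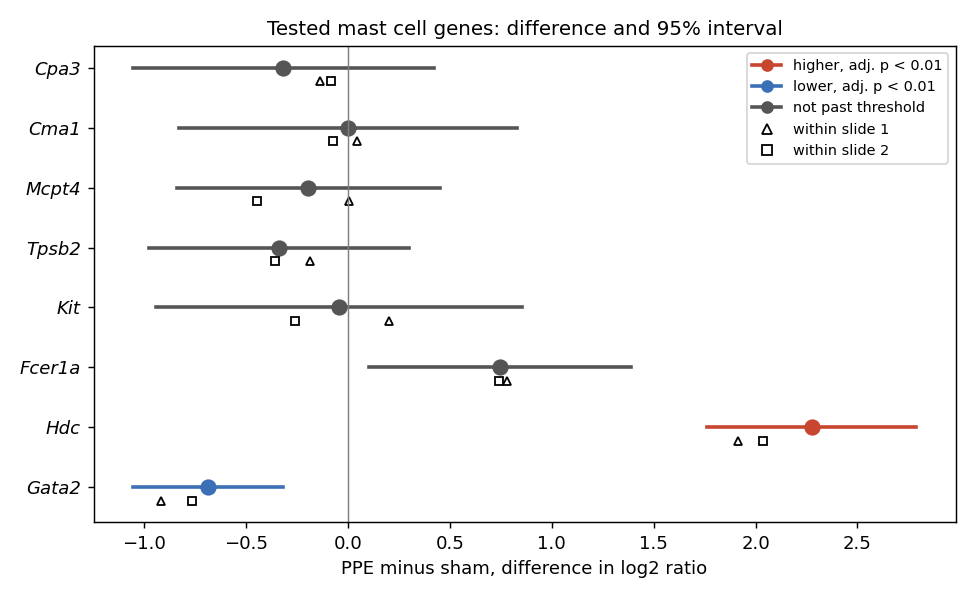
PPE minus sham difference in log2 ratio (horizontal axis) for the 8 tested mast cell genes, with the limma 95% interval as a line and the difference within slide 1 (triangle) and slide 2 (square). The intervals of the 4 proteases and of Kit cross 0, that of Fcer1a runs from 0.10 to 1.39, and those of Hdc and Gata2 lie clear of 0 on opposite sides.

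Of the receptors, Kit was not called and had nearly equal group means, Fcer1a had the higher mean in PPE aorta without being called, and Ms4a2 was not measurable. Kit is the receptor for stem cell factor, the main growth factor of mast cells. Its log2 ratio was 4.63, 4.90, 3.74, 4.47 and 3.23 on sham arrays 1 to 5 and 5.19, 4.47, 3.90, 4.22 and 2.97 on PPE arrays 1 to 5. The groups covered nearly the same range, with array 5 the lowest of each. Sham 5 and PPE 5 were also the arrays of their groups with the fewest spots above background in red, 37.6% and 45.8%. The reference RNA was above background for the Kit probe on 3 arrays. The Kit difference was -0.04 (SE 0.41, 95% interval -0.94 to 0.85, limma adjusted p = 0.950), 0.20 within slide 1 and -0.26 within slide 2. Its sign turned under 11 of the 28 alternatives. Markers of interstitial cells of Cajal and melanocytes, which also carry Kit, were tested for 5 of 5 genes. Of these 0 were called higher and 1 lower (median difference -0.03), against 13.8% and 9.96% over all genes tested. The part of these cells in the Kit level was not tested.

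Fcer1a encodes the chain of the high-affinity receptor that binds IgE, found on mast cells and basophils in the mouse. Its log2 ratio was 1.42, 0.66, 0.77, 1.12 and 0.47 on sham arrays 1 to 5 and 1.96, 2.43, 1.07, 1.84 and 0.87 on PPE arrays 1 to 5. The probe was above background on 5 of 5 PPE arrays and 4 of 5 sham arrays, sham 5 being the exception, and 3 PPE arrays lay above every sham array. The sham mean was 0.89 ± 0.38 and the PPE mean 1.63 ± 0.65 (SD, n = 5 each). The difference of 0.75 (SE 0.29, 95% interval 0.10 to 1.39) did not pass the threshold (limma adjusted p = 0.0698, exact permutation p = 0.0635). It was 0.78 within slide 1 and 0.74 within slide 2, and the reference RNA was above background for this probe on 0 arrays. Ms4a2, the beta chain of the same receptor, was above background on 0 of 10 arrays, with ratios between -0.21 and 0.22.

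Basophils share Fcer1a, and their list moved in part. Of 4 basophil genes, 3 were tested and 2 were called higher, against 13.8% called higher over all genes tested. Il3ra, the alpha chain of the interleukin-3 receptor and present on many myeloid cells, rose by 2.24 (limma adjusted p = 5.1e-06). Cd200r1, an inhibitory receptor of myeloid cells, rose by 1.93 (limma adjusted p = 0.00233). The proteases that define basophils did not follow: Mcpt8 was above background on 1 PPE array alone, and Prss34 differed by 0.28 (limma adjusted p = 0.347). The basophil score (the mean log2 ratio of the tested genes) ran from 0.29 to 0.64 in sham and from 1.48 to 2.43 in PPE. The part of basophils in the Fcer1a values was not tested.

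Hdc was the mast cell gene upregulated in PPE aorta. It encodes histidine decarboxylase, the enzyme that makes histamine. Its log2 ratio was 1.94, 1.38, 1.02, 1.58 and 0.82 on sham arrays 1 to 5 and 4.0, 3.72, 3.11, 3.37 and 3.94 on PPE arrays 1 to 5. Every PPE array lay above every sham array, by more than 1 unit between the nearest. The mean rose from 1.35 ± 0.44 to 3.63 ± 0.38 (SD, n = 5 each), a difference of 2.28 (SE 0.23, 95% interval 1.76 to 2.79, limma adjusted p = 2.25e-05). This is 4.84-fold as a ratio to the reference, and the exact permutation p of 0.00794 is the smallest that 5 against 5 arrays can give. The reference signal of this probe, less background and before normalisation, was not constant. It ran from 67 to 120 on sham arrays and from 116 to 1078 on PPE arrays, and the cause was not tested. By the deposited LogRatio and by the series matrix the difference was 1.45 (limma adjusted p = 0.000871 and 0.000866). It was 1.91 within slide 1 and 2.04 within slide 2.

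Neutrophils, macrophages and basophils also make Hdc, and some marker RNAs of each were called higher too. For basophils, given above, these were 2 of the 3 tested genes. Of 10 neutrophil markers, 9 were tested and 8 were called higher, with a median difference of 3.11. Their score ran from 0.46 to 0.55 in sham and from 2.65 to 4.18 in PPE. Ngp and Mmp8 were above background on no sham array, and Ltf and Cxcr2 on 1 each. These passed the detection filter through the PPE arrays, so their calls and their part in the median and score are not independent of it. Of 10 macrophage markers 6 were called higher (median 1.31, score 1.48 to 2.11 in sham and 2.92 to 4.01 in PPE). The part of these cells in the Hdc result was not tested. Against the mean of Cpa3, Cma1, Mcpt4 and Tpsb2 on the same array, Hdc lay from -1.89 to -0.98 in sham and from 0.43 to 1.68 in PPE. The protease mean differed little between the groups (2.66 in sham, 2.45 in PPE). The scale therefore largely restates the Hdc difference and is no separate evidence for it. The offset between different probes carries no meaning, and the change between groups is what the scale shows.

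**Figure D3:**
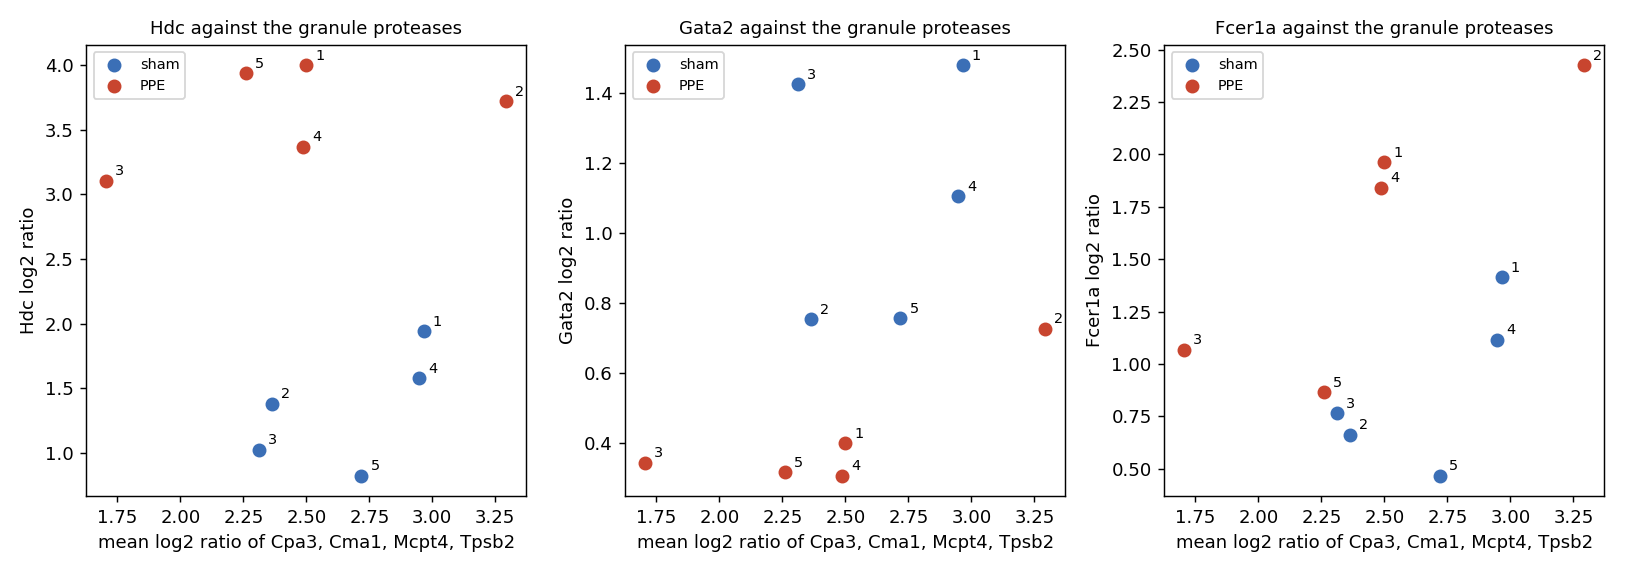
Log2 ratio of Hdc, Gata2 and Fcer1a (vertical axes) against the mean log2 ratio of Cpa3, Cma1, Mcpt4 and Tpsb2 on the same array (horizontal axis), 5 sham and 5 PPE arrays numbered by replicate. The groups overlap along the protease axis and separate along the Hdc axis, and Gata2 separates in the opposite direction by a narrow gap.

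The rest of the histamine pathway showed no called gene. The list of histamine receptors, transport and breakdown held 7 genes, of which 5 were tested and 0 were called (limma, median -0.09), and 0 had an unadjusted p below 0.05. With no filter on dim probes 1 of 7 was called higher. Aoc1, the diamine oxidase that degrades histamine outside cells, was singled out after its values had been seen. The array lists it under its older symbol, and it was above background on 0 sham and 4 PPE arrays, too few to be tested. Its ratio was between -0.31 and 0.11 in sham and between 0.22 and 1.35 in PPE, and its red signal was at least 1.56-fold higher in PPE.

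Gata2 was the mast cell gene downregulated in PPE aorta. It encodes a zinc-finger transcription factor that mast cells need for their identity and that endothelium and blood progenitors use as well. The log2 ratio was 1.48, 0.75, 1.43, 1.11 and 0.76 on sham arrays 1 to 5 and 0.40, 0.73, 0.34, 0.31 and 0.32 on PPE arrays 1 to 5. All PPE arrays lay below all sham arrays, but PPE 2, at 0.73, was just under sham 2, at 0.75. The mean fell from 1.10 ± 0.35 to 0.42 ± 0.18 (SD, n = 5 each), a difference of -0.69 (SE 0.17, 95% interval -1.05 to -0.32, limma adjusted p = 0.00747, exact permutation p = 0.00794). Sham was 1.61-fold above PPE. Within slide 1 the difference was -0.92 and within slide 2 it was -0.77.

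The Gata2 call lay close to the threshold. It was lost without sham 1, sham 3, sham 4, PPE 1, PPE 3, PPE 4 or PPE 5, where the difference was -0.59 to -0.69 and the limma adjusted p 0.0145 to 0.0205. With median centring in place of loess the difference was -0.14 (limma adjusted p = 0.889), which is -0.55 relative to the median of all genes under that scaling, 0.41. Of 10 endothelial markers 0 were called (median 0.15, score 2.81 to 3.97 in sham and 2.97 to 4.16 in PPE), 2 had an unadjusted p below 0.05, and 1 was called higher without sham 1 or with scan day as a block, and with slide as a block 2 were called higher and 1 lower. Of 7 blood progenitor markers 2 were called higher and 1 lower (median 0.59), against 13.8% and 9.96% over all genes tested. The call lower was lost without any of sham 1, sham 2, sham 4, sham 5, PPE 1, PPE 3 or PPE 4. Mpo, 1 of those called higher, was above background on 1 of 5 sham and 5 of 5 PPE arrays. It passed the detection filter through the PPE arrays, so its call and its part in the median are not independent of that filter. Smooth muscle, the main cell of the wall, had 6 of 8 markers called lower, with a median of -1.81. The part of these cells in the Gata2 result was not tested.

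Across arrays of a group the proteases did not vary as 1 set, and some went together more closely than others. The mean of Cpa3, Cma1, Mcpt4 and Tpsb2 was 2.66 ± 0.31 over the sham arrays (range 2.31 to 2.97) and 2.45 ± 0.57 over the PPE arrays (range 1.71 to 3.29, SD, n = 5 each). PPE 2 was the highest PPE array for 4 of the 4 genes, PPE 3 the lowest for 3 and PPE 5 for 1. No sham array stood at 1 end for all 4: sham 5 was the highest for Mcpt4 and Tpsb2 and the lowest for Cma1. Once each group's mean was taken off, Cpa3 and Cma1 had r = 0.837 over the 10 arrays and Mcpt4 and Tpsb2 had r = 0.840, whereas Cpa3 with Mcpt4 had 0.0478 and Cpa3 with Tpsb2 0.115. Cma1 lay between, at 0.473 with Mcpt4 and 0.438 with Tpsb2. The other Tpsb2 probe went with Cpa3 (0.838) and Cma1 (0.943), and had r = 0.502 with Mcpt4 and 0.361 with the brighter probe. Which genes Tpsb2 went with thus depended on the probe. The reference RNA was above background on 4 arrays for Cpa3, 1 for Cma1 and 6 for the other Tpsb2 probe. For Mcpt4 and the brighter Tpsb2 probe it was so on 10 arrays. The part of the reference signal in these correlations was not tested. PPE 2 also had the highest PPE score for endothelial, smooth muscle and fat cell markers, and their part in this order was not tested. By the same measure Fcer1a followed the protease mean with r = 0.803, Hdc with 0.483, Gata2 with 0.410 and Kit with 0.303. Among tested RefSeq-named genes outside all lists, those most like the protease mean in pattern were Hhip (r = 0.960), Tcap and Inmt (both 0.940) and Cox8b (0.937). Of the same RefSeq-named genes outside all lists, 16 had an r above 0.9. These are descriptions over arrays that in part share a slide and differ in the share of spots above background, and carry no p.

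Among 18 other mast cell genes 13 were tested, of which 3 were called higher and 1 lower, with a median difference of -0.16. Over all genes tested the shares were 13.8% and 9.96%, so these counts are not read as a result about the list. The genes called higher were Srgn, the serglycin core on which granule contents are packed but which most blood cells make (2.60, limma adjusted p = 2.51e-05), Adora3, an adenosine receptor that primes degranulation (2.35, limma adjusted p = 0.000359), and Hpgds, the enzyme of prostaglandin D2 synthesis (1.13, limma adjusted p = 0.000307). Rab27b, a small GTPase of granule transport, fell by 1.15 (limma adjusted p = 9.51e-05). On the single arrays Srgn ran from 1.04 to 1.83 in sham and from 3.27 to 4.83 in PPE, and Adora3 from 0.38 to 0.96 and from 1.78 to 4.18. A second Adora3 probe, above background on 4 arrays and so not tested, differed by 0.69. Hpgds was above background on 2 of 5 sham arrays and 5 of 5 PPE arrays. It passed the detection filter through the PPE arrays, so its call and its place in the count are not independent of that filter. The part of other leukocytes in the called genes was not tested. Mcpt1, Mcpt2 and Mcpt9, proteases of mucosal mast cells and of the uterus, were above background on no array.

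**Figure D4:**
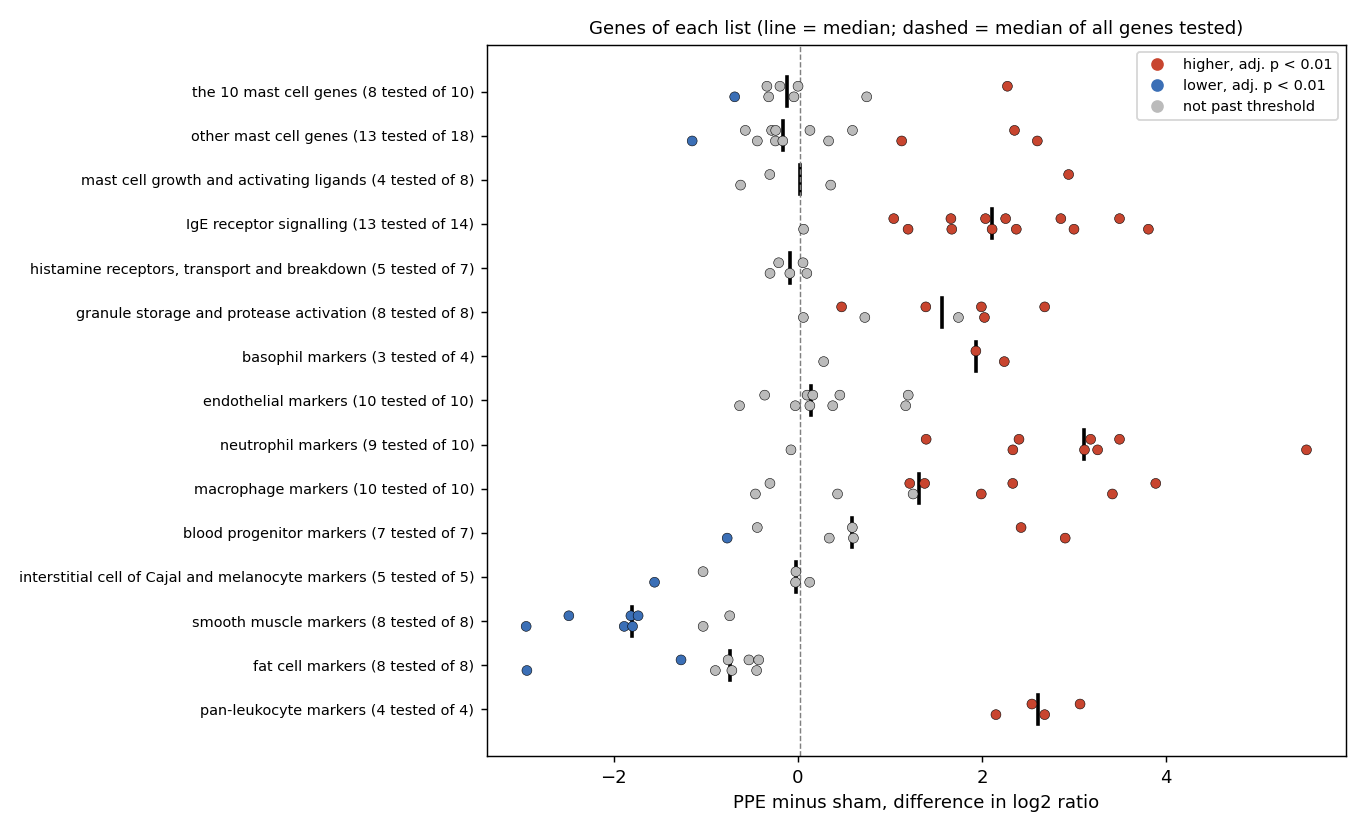
PPE minus sham difference in log2 ratio (horizontal axis) of each tested gene in 15 lists (rows), coloured by call, with the list median as a black line and the median of all genes tested, 0.02, dashed. The mast cell lists straddle 0 with medians of -0.12 and -0.16, whereas the medians are 2.11 for IgE receptor signalling and 3.11 for neutrophil markers.

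The ligands that feed or activate mast cells differed by gene. Of 8 ligands 4 were tested and 1 was called higher, against 13.8% called higher over all genes tested. Il33, an alarmin released by damaged stromal and endothelial cells, was 0.19, 0.09, 0.24, 0.34 and 0.64 on sham arrays 1 to 5 and 2.85, 3.61, 3.62, 3.40 and 2.74 on PPE arrays 1 to 5. The groups lay far apart, by 2.94 (SE 0.19, limma adjusted p = 1.26e-06). Kitl, the ligand of Kit, differed by -0.62 (SE 0.27, limma adjusted p = 0.102), with PPE 5 the highest array of either group at 0.24 although the PPE mean was lower. Without PPE 5 it was called, at -0.89 (limma adjusted p = 0.00257). It was named after its values had been seen. Il9 was above background on no array.

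Signalling below the IgE receptor gave the largest shift among the lists on mast cell function. Of 14 genes 13 were tested and 12 were called higher, with a median of 2.11. Lcp2, 1 of those called, was above background on 2 of 5 sham and 5 of 5 PPE arrays. It passed the detection filter through the PPE arrays, so its call and its place in the count are not independent of that filter. Fcer1g, the gamma chain that the IgE receptor shares with the IgG receptors of myeloid cells, was -1.42, -1.60, -1.12, -0.84 and -0.30 on sham arrays 1 to 5 and 3.37, 2.85, 2.61, 2.93 and 2.01 on PPE arrays 1 to 5, a rise of 3.81 (SE 0.28, limma adjusted p = 2.34e-06). Vav1, an exchange factor of blood cells, rose by 3.49, and Inpp5d, a phosphatase that restrains the pathway, by 3.0 (limma adjusted p = 2.75e-07 each). Lat2, an adaptor, rose by 2.86 (limma adjusted p = 2.87e-06), Syk, the kinase recruited by the gamma chain, by 2.04 (limma adjusted p = 6.47e-06) and Lyn, the kinase that starts signalling, by 1.66 (limma adjusted p = 4.37e-05). These genes are used by most leukocytes, and 4 of 4 pan-leukocyte markers were called higher with a median of 2.61 (score -1.22 to -0.34 in sham and 1.24 to 2.14 in PPE). The part of other leukocytes in this list was not tested.

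Granule storage and protease activation had 5 of 8 genes called higher and 0 lower, with a median of 1.57. Over all genes tested 13.8% were called higher and 9.96% lower. Ctsc, the peptidase that activates granule proteases in mast cells, neutrophils and lymphocytes, rose by 2.68 (limma adjusted p = 2.28e-05). Gzmb, a granule protease of cytotoxic lymphocytes and some mast cells, rose by 1.99 (limma adjusted p = 0.00132), and Ctsl, a lysosomal protease, by 0.47 (limma adjusted p = 0.00331). The inhibitors Serpina3n and Slpi rose by 1.39 and 2.03 (limma adjusted p = 0.00431 and 0.00676). The call of Ctsl was lost without sham 1 or PPE 4 (limma adjusted p up to 0.0109), that of Serpina3n without sham 2, sham 3 or PPE 1 (up to 0.0131), and that of Slpi without any of sham 1 to 4, PPE 1, PPE 3 or PPE 4 (up to 0.0189). Without sham 1, sham 2, sham 3 or PPE 1 the count of the list was 3, and by the deposited LogRatio or the series matrix it was 2, with a median of 0.91.

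**Figure D5:**
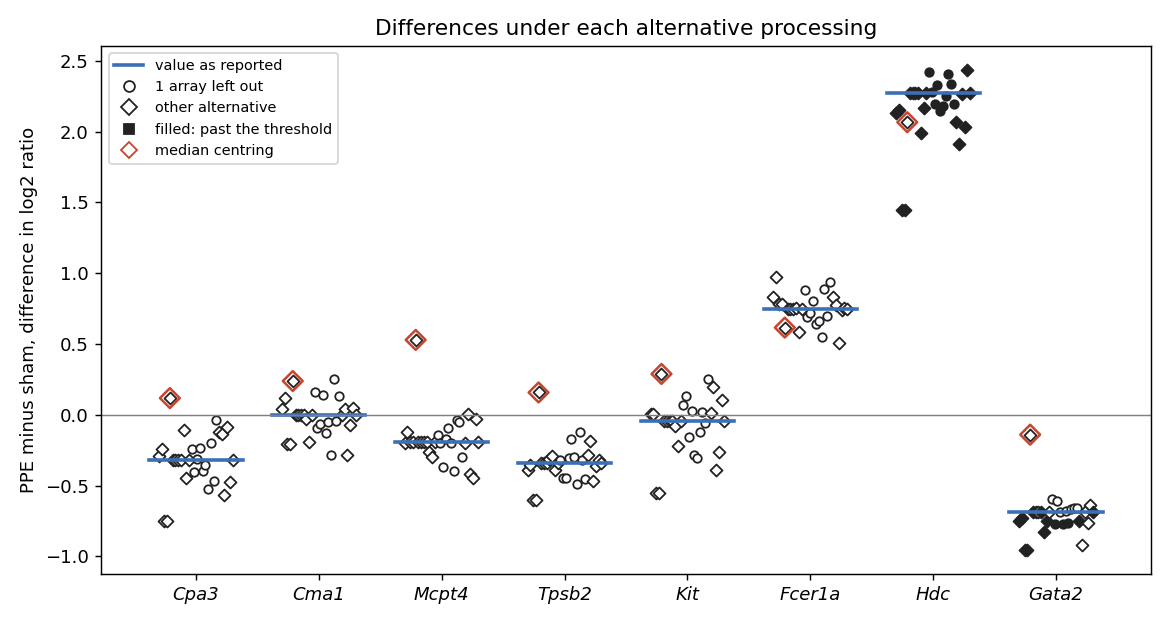
PPE minus sham difference in log2 ratio (vertical axis) of the 8 tested mast cell genes as reported (blue line) and under each of 28 alternative treatments, with filled symbols past the threshold. Hdc stays between 1.45 and 2.44, Fcer1a between 0.51 and 0.98 and never past the threshold, and Gata2 is below 0 under all of them while its call comes and goes.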

How the data were processed

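Gene expression was measured on 2-colour Agilent whole genome arrays in 5 sham and 5 PPE aortas, 500 ng of RNA and 1 mouse per array, against a universal mouse reference in green; dyes were not swapped. Groups and replicate numbers came from the sample labels. The authors extracted spot intensity values with Feature Extraction 10.7.3.1 (probe positions in mm9), and removed arrays with poor hybridisation and those set apart by clustering and principal components, which can narrow the spread within groups. The deposited files hold mean red and green intensity, median local background, the log10 LogRatio, and flags for background and outliers. The authors' series matrix holds log2 ratios that equalled processed red over green within 1e-04 for 100% of spots, not centred (array medians -0.16 to 0.12).

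The 62976 spots per array were background-corrected (normexp, offset 50) and loess-normalised within each array. Control spots and outlier spots (176 to 331 per array) were left out; 0 spots were saturated. Replicate spots were averaged. Testing needed red marked as above background on 5 or more of the 10 arrays, and the probe of highest mean brightness stood for its gene. limma 3.58.1 in R 4.3.3 (lmFit, eBayes, two-sided, unpaired) was used with Benjamini-Hochberg adjustment over 22520 genes and a threshold of 0.01. The study's methods name SAM, a two-class unpaired test at a false discovery rate under 1%, which was not run here. Exact permutation tests used all 252 relabellings. The number of arrays limits the precision, and 28 alternatives were tried. The procedure was tested on simulated data.

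Members and gene lists were chosen with earlier results of these data known. Named genes were all members, up to 6 called genes of each related list by adjusted p, the basophil genes, and the 5 genes closest in pattern to the protease mean, of which 1 is not reported here; Kitl and Aoc1 were added after their values were seen. Promoter sequences are from RefSeq.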

Additional observations from a re-analysis of the deposited data

Results flagged for a closer look

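Values of the mast cell genes and scores were searched for an array far from the others of its group, by Dixon's ratio of the end gap to the whole range. Of 26 groups of 5 arrays, 1 exceeded the 95% limit of 0.71. It was Gata2 in PPE, where PPE 2 had a log2 ratio of 0.73 and the next array 0.40, a ratio of gap to range of 0.778. Chance flags about 5% of groups, so 1 of 26 is near what chance alone gives.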

How the results depend on the processing

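The 28 alternatives (10 leaving out 1 array each) kept Hdc higher in all, with 1 mast cell gene called higher in 27 and 0 under median centring, where Hdc was 2.07 (limma adjusted p = 0.0373). Fcer1a was tested in 27, since it drops out when detection is required on all 10 arrays, and passed in none (limma adjusted p 0.0184 to 0.333). The count of mast cell genes called lower, 1 for Gata2, was 0 under median centring, without a filter on dim probes (limma adjusted p = 0.0104), and within or outside slide 1 and slide 2; leaving out single arrays gave 0 to 1. The within-slide fits hold 3 or 4 arrays and so fewer samples.

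Over all genes, calls higher and lower were 408 and 8 under median centring, 810 and 317 on slide 1, 2029 and 1419 outside slide 1, 1267 and 673 on slide 2, and 942 and 439 outside slide 2; leaving out single arrays gave 2512 to 3615 and 1754 to 2352. Median centring moved the median of all genes from 0.02 to 0.41. Under it Cpa3 was 0.12, Mcpt4 0.53, Tpsb2 0.16 and Kit 0.29, which relative to that median are -0.29, 0.12, -0.25 and -0.12; the cause was not tested. Other changes of sign were in values near 0. Kit was 0.0026 with no background correction, 0.0063 with offset 16, 0.011 without sham 5 and PPE 5, 0.20 on slide 1 and 0.10 outside slide 2, and -0.30 to 0.25 leaving out single arrays. Cma1 was -0.20 by the deposited LogRatio, by the series matrix and with scan day as a block, -0.027 with slide as a block, -0.29 outside slide 1, -0.073 on slide 2, and -0.28 to 0.25 leaving out single arrays. Mcpt4 was 0.0053 on slide 1.

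For genes of the related lists the same alternatives were run after the data had been seen. Prss34, not called, was -0.28 by the deposited LogRatio and the series matrix. The calls of Il33, Vav1, Inpp5d, Fcer1g, Lat2 and Il3ra held in all 28. Under median centring IgE receptor signalling had 5 genes called higher (median 2.46), neutrophil markers 4 (2.48), macrophage markers 2 (1.61), granule storage 0 (1.4) and the other mast cell genes 0 (0.23), and smooth muscle markers had 0 called lower (-0.96).

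Replicate numbers did not pair the arrays: deviations of same-numbered sham and PPE arrays correlated at 0.29, -0.30, 0.16, -0.14 and 0.52, and of the sham arrays sham 5 alone correlated best with its own number. With the replicate block Gata2 was -0.69 (limma adjusted p = 0.0165) and 0 mast cell genes were called lower, and 1 endothelial marker was called higher. Genes near background (Tpsab1, Ms4a2) have no measurable change here.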
